A study of Homo sapiens with 12 samples.

Results

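Genes of the G2 and M phases of the cell cycle were followed in the human liver cancer line HepG2 over 360 min of exposure to the herbicide 2,4-D. The 45 genes were taken by symbol from the 60612 gene rows of the deposited count table. They are textbook genes of mitotic entry, the spindle, the kinetochore, chromosome structure and cytokinesis, chosen with earlier results of these data known. All 45 had enough counts to be tested.

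Poly(A)-selected RNA was sequenced from 12 libraries, 3 biological replicates at each of 4 times. The 0 min libraries are labelled untreated, and the cells of the other groups were exposed to 0.001 µM 2,4-D for 10, 30 or 360 min. 2,4-D is a synthetic auxin that kills broadleaf plants, and the design follows the response to 1 dose over time. All groups are of the same line and were detached with trypsin before RNA extraction. Untreated cells harvested at 10, 30 or 360 min were not analysed here, so that exposure and elapsed time cannot be told apart.

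A cell that has copied its DNA enters mitosis when the kinase CDK1, bound to cyclin A or cyclin B, is activated by CDC25 phosphatases. Polo and Aurora kinases then build the spindle, kinetochores attach chromosomes to it, and the spindle checkpoint holds the anaphase-promoting complex until all are attached. Transcription of these genes peaks together late in the cycle under MuvB complexes containing MYBL2 or FOXM1, and is held low in resting cells by the related DREAM complex. In bulk RNA, a change in the share of cells in G2 or M and a change in mRNA per cell cannot be told apart.

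The cells carried the liver identity of their label. All 9 hepatocyte and hepatoma markers (ALB, AFP, APOA1, APOB, TTR, SERPINA1, FGB, HNF4A and TF) were detected, with a summed level of 28400 to 30900 CPM (counts per 1e6 counts, scaled by TMM) at 0 min, 31500 to 32000 at 10 min, 30500 to 30800 at 30 min and 31800 to 32900 at 360 min. Of 6 fibroblast markers 1 was tested and COL1A2 and DCN were at 0, with sums of at most 3.72 CPM. Of 4 endothelial markers 2 were tested and KDR was at 0, with sums of at most 2.21 CPM. Of 5 leukocyte markers 3 were tested and PTPRC was at 0. The leukocyte sum of 1800 to 2030 CPM was nearly all LYZ, at up to 1960 CPM. The hepatocyte sum was higher at 360 min than at 0 min in every library, and its part in the results was not tested.

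Library totals ran from 29.8 to 83.5 in units of 1e6 counts, and the lowest count of any of the 45 genes in a library was 360, for SGO1. The libraries fell on either side of a gap in the share of mitochondrial counts, 3.55% to 4.39% in 7 libraries and 2.52% to 2.74% in the other 5. The 7 were replicate 1 at 0 min, all replicates at 10 min, replicates 2 and 3 at 30 min and replicate 3 at 360 min. With this split as a term in the model, counts at 360 min against 0 min were the same, 36 genes higher and 1 lower. Of all genes tested, 9.65% were then called higher and 9.6% lower, against 8.89% and 9.19% without the term.

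The promoters of the group share short sequences, and 4 are shown. They are those of the genes with the smallest p at 360 min against 0 min whose stretch held both a TTTGAA and a CCAAT. The CHR (cell cycle genes homology region), TTTGAA or TTCGAA, is the element bound by MuvB complexes, and CCAAT is the box bound by NF-Y. RefSeq windows on GRCh38.p14, reaching from 250 bases before a start to 50 after it, were held for 39 of the 45 genes. AURKA, BIRC5, FOXM1, TPX2, TTK and UBE2C had none. Each stretch below ends at the base before the RefSeq start and reads 5′ to 3′ in the direction of transcription. Capitals mark TTTGAA and CCAAT on either strand, so TTCAAA and ATTGG are the same motifs read from the other strand.
TOP2A (chr17:40417897-40418146, minus strand): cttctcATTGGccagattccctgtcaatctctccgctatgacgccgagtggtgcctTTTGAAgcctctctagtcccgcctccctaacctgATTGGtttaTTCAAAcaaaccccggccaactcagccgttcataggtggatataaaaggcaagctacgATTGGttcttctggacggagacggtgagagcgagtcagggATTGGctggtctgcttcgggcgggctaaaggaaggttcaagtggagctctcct
ASPM (chr1:197146670-197146813, minus strand): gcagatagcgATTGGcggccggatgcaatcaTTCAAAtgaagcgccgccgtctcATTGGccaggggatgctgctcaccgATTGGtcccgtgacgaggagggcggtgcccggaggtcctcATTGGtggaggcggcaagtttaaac
CENPA (chr2:26785841-26786055, plus strand): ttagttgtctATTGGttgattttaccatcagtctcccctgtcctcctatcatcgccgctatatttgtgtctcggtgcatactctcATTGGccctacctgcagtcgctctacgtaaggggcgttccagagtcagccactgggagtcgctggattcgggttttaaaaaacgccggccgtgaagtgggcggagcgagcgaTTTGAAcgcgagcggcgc
ECT2 (chr3:172750601-172750725, plus strand): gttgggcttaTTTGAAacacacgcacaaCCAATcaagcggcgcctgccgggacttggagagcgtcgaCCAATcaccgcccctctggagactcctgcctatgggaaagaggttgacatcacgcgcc
The TOP2A stretch held TTTGAA letters starting 194 and 151 bases before the start, with 4 CCAAT boxes around them. ASPM had 1 TTTGAA, 113 bases before the start, and 4 CCAAT boxes. CENPA had 1 TTTGAA only 18 bases before the start and 2 CCAAT boxes farther out. ECT2 had 1 TTTGAA, 115 bases before the start, followed by 2 CCAAT boxes. No marked motif overlapped another in these 4 stretches.

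Both motifs were frequent across the group, including the genes whose level was not higher at 360 min. A CHR in either spelling, on either strand, lay in a window of 30 of the 39 genes (76.9%), against 15.5% of all 11088 tested genes with a window. TTTGAA alone was found for 27 of 39 (69.2%, against 13.7% of tested genes) and CCAAT for 32 of 39 (82.1%, against 42.6%). The window of 22 genes held TTTGAA and CCAAT together (56.4%, against 5.7%). Counted per window, 33 of 52 windows held a CHR (63.5%), against 12.0% of the 15888 windows of tested genes and 16.4% of all 35116 windows. GGCGGGA, a core of E2F sites, lay in 13 of 39 (33.3%), close to the 29.2% of tested genes. By the call at 360 min, a CHR was found in 24 of 32 genes called higher and in 6 of 7 not called higher. These are matches of letters in a window and not measured binding.

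At 10 and 30 min no gene of the group passed the main test. edgeR's quasi-likelihood test, with p-values adjusted by Benjamini-Hochberg over all 17779 genes tested, called 0 of the 45 at 10 min against 0 min (0.0112% of all genes were called higher and 0.00562% lower). DESeq2 called 0.649% higher and 0.526% lower of the 14649 genes to which it gave an adjusted p. Both DESeq2 and limma voom also called 0 of the 45. By edgeR 6 of the 45 had an unadjusted p under 0.05, against 10.9% of all genes. The median log2 fold change was -0.03, with a range of -0.21 to 0.15. At 30 min edgeR again called 0 (0.18% of all genes called higher, 0.585% lower), and 3 of the 45 had an unadjusted p under 0.05, against 9.29% of all genes. DESeq2 and voom each called 1 gene of the 45 lower at 30 min, PRC1, whose values are given below. By DESeq2 1.28% of the 15291 genes with an adjusted p were lower, and by voom 0.686% of all genes. The median log2 fold change at 30 min was 0.01, with a range of -0.24 to 0.11. Libraries of the groups did not overlap for 2 genes higher and 2 lower at 10 min (7.73% and 7.72% of all genes), and for 3 higher and 3 lower at 30 min (7.0% and 7.5%).

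At 360 min most of the group was higher by a modest amount. Against 0 min 36 of the 45 genes rose, 1 fell and 8 did not pass the test, where 8.89% of all genes tested rose and 9.19% fell. The median log2 fold change was 0.25, a 1.19-fold higher level, against a median of 0.00 over all genes tested. The middle of the group, from its lower to its upper quartile, lay between 0.15 and 0.30, and the range was -0.21 for CDC25B to 0.51 for ASPM. Libraries of the 2 groups did not overlap for 38 genes higher and 1 lower (18.3% and 17.3% of all genes). For 36 genes every 360 min library also lay above all 9 earlier libraries, as for 11.1% of all genes, and for CDC25B every one lay below them, as for 10.6%. The 45 were better counted than most tested genes, with a median level of 6.17 log2 CPM against 3.79, so these shares do not rest on equal counting error. Under a stricter low-count filter, which kept 14000 genes, 36 of the 45 were again called higher, beside 11.9% of the genes kept.

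**Figure D1:**
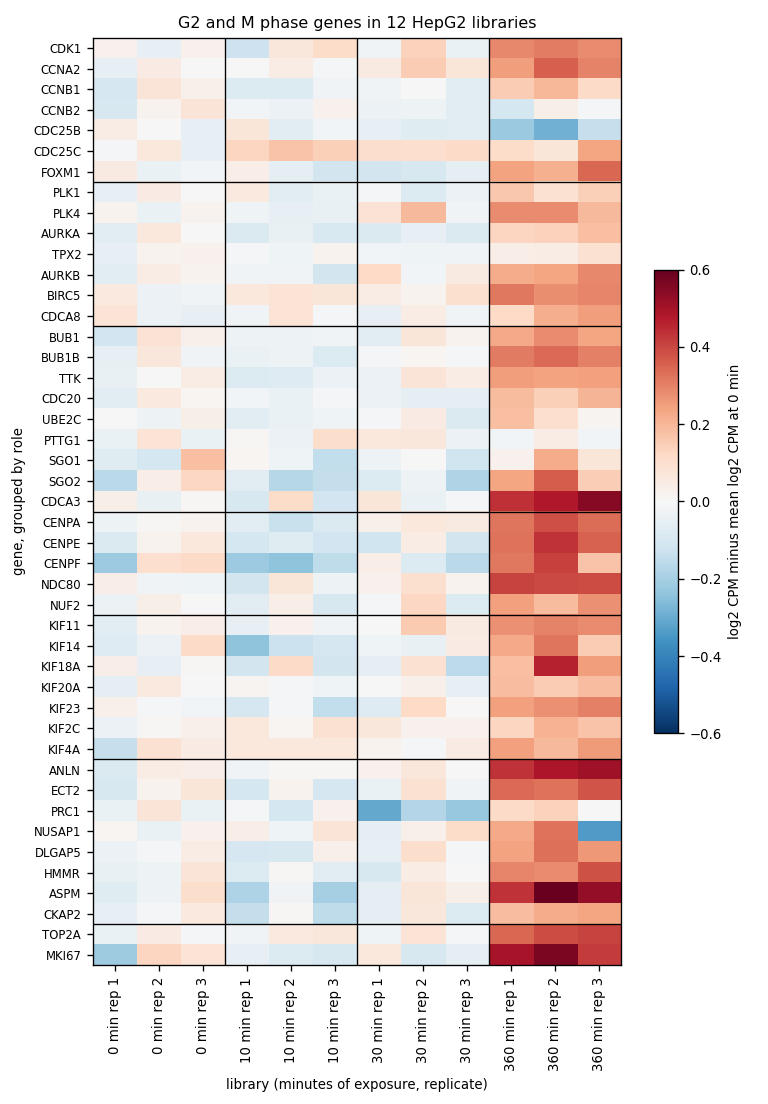
Heat map of the 45 genes (rows, grouped by role) in the 12 libraries (columns, by minutes of exposure and replicate), coloured by log2 CPM minus the gene's mean log2 CPM at 0 min. The 3 columns at 360 min are red for most rows, with CDC25B blue, and the 9 earlier columns are mostly pale, with PRC1 at 30 min the bluest. NUSAP1 is blue in replicate 3 at 360 min.

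The shift was alike in the 3 libraries at 360 min. Each library's median over the 45 genes, as log2 CPM minus the 0 min mean, came to -0.047, 0.022 and 0.025 for the 0 min libraries, to -0.040, -0.025 and -0.031 for those of 10 min, to -0.023, 0.043 and -0.021 for those of 30 min, and to 0.242, 0.277 and 0.252 for those of 360 min. The corresponding median over all genes tested stayed between -0.003 and 0.004 in every library. Summed over the group, the 360 min libraries held 5014, 5126 and 5029 CPM, against 4068, 4354 and 4318 CPM at 0 min. Replicate 1 at 0 min was the lowest of all 12. Without it 30 rather than 36 genes were called higher, and 6.45% rather than 8.89% of all genes. Leaving out each library of the 2 groups in turn gave 29 to 34, with 29 (5.5% of all genes) without replicate 2 at 360 min.

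**Figure D2:**
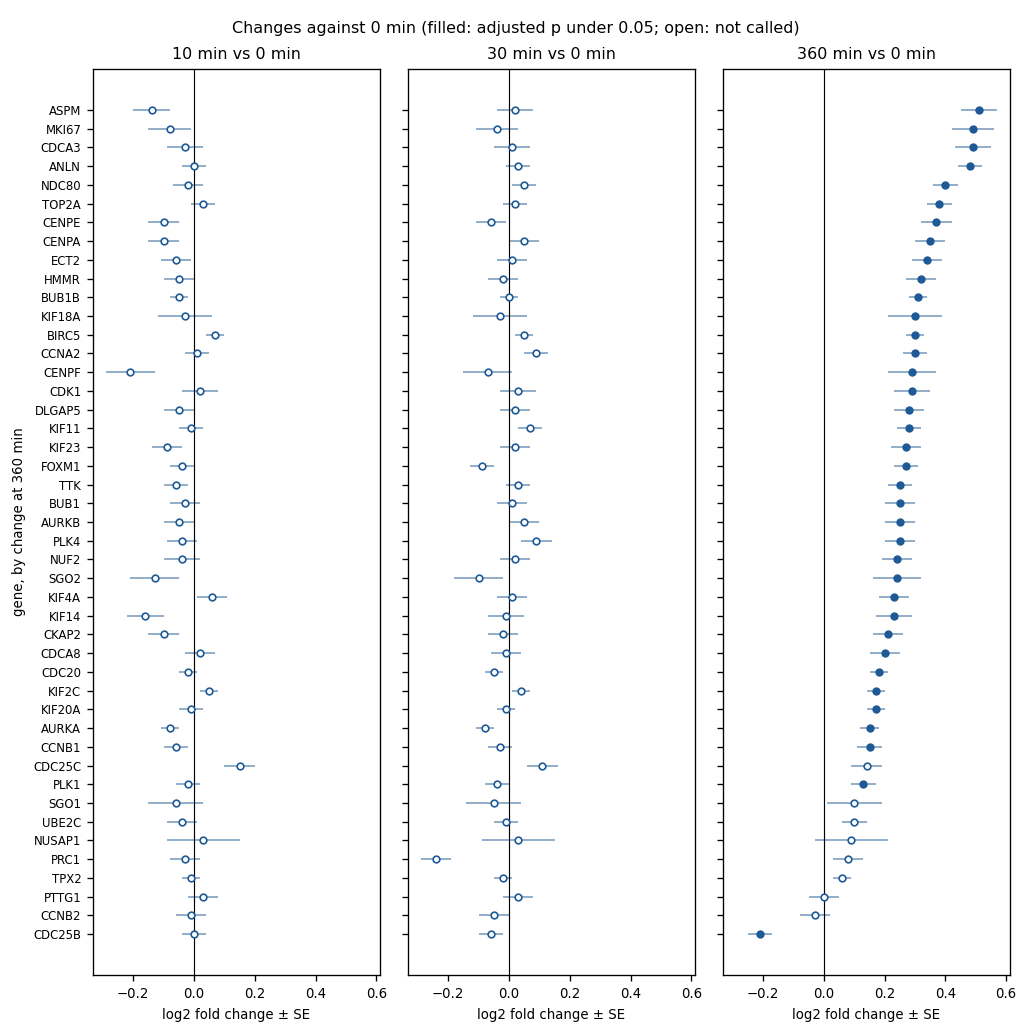
Log2 fold change ± SE of the 45 genes (rows, ordered by the change at 360 min) against 0 min, in 1 panel each for 10, 30 and 360 min, with filled points for an adjusted p under 0.05. All points at 10 and 30 min are open, and at 360 min 36 filled points lie right of 0 and CDC25B, at -0.21, lies left of it.

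Levels of the 45 genes spanned a wide range. Per kilobase of exon, the highest mean level at 0 min was that of TPX2 at 90.2 CPM per kb, followed by AURKA at 77.9, CCNB1 at 72.9 and TOP2A at 63.9 CPM per kb. The lowest were KIF18A at 3.13, SGO1 at 3.36 and SGO2 at 3.86 CPM per kb. The change at 360 min did not follow the level (Spearman's rho 0.00 with the mean log2 CPM over the 45 genes, which share the same 12 libraries). TPX2, the most abundant per length, was at 0.06 ± 0.03 (log2, adjusted p = 0.22) at 360 min against 0 min, while TOP2A rose by 0.38 ± 0.04 (log2, adjusted p = 3.9e-05).

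Of the 7 genes of CDK1, its cyclins and activators, and the transcription factor FOXM1, 4 rose, 1 fell and 2 did not pass the test at 360 min against 0 min (median log2 fold change 0.15). Gene positions are those of GENCODE 29 on GRCh38. CCNA2, which encodes cyclin A2 (chromosome 4, 121816444 to 121823933, minus strand), had 120.4, 128.5 and 124 CPM at 0 min, 125, 128 and 124 CPM at 10 min, 129, 138 and 131 CPM at 30 min, and 148, 159.5 and 153 CPM at 360 min. All 3 libraries at 360 min lay above all 9 earlier ones, and the fold change ± SE against 0 min was 0.30 ± 0.04 (log2, adjusted p = 0.00015). FOXM1, the forkhead factor that drives late cell cycle transcription (chromosome 12, 2857681 to 2877155, minus strand), had 91.7, 86.0 and 87.4 CPM at 0 min, 90.8, 84.8 and 81.9 CPM at 10 min, 81.8, 82.6 and 84.9 CPM at 30 min, and 104, 102.5 and 112 CPM at 360 min. Its 360 min libraries again stood above all others, by 0.27 ± 0.04 (log2, adjusted p = 0.0011) against 0 min. ITFG2, which overlaps FOXM1 on the opposite strand over 15.9% of its exon length, also rose, by 0.23 (log2, adjusted p = 0.039), and the use of strand in counting is not given in the sources used here.

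CDK1, the kinase at the centre of mitotic entry, had 164, 166 and 164 CPM at 360 min, against 137, 130.0 and 137 CPM at 0 min. The groups did not overlap, and the log2 fold change was 0.29 ± 0.06 (log2, adjusted p = 0.0038). CCNB1 and CCNB2 encode the B-type cyclins that pair with CDK1, and their values differed. CCNB1 had 207, 213 and 202 CPM at 360 min, against 173, 196 and 189.9 CPM at 0 min, a rise of 0.15 ± 0.04 (log2, adjusted p = 0.027) with no overlap between the groups. That call was lost without replicate 1 at 0 min (adjusted p = 0.11) and without replicate 1 or replicate 2 at 360 min (adjusted p = 0.067 and 0.13). CCNB2 had 61.5, 67.7 and 65.6 CPM at 360 min, against 61.8, 67.1 and 69.6 CPM at 0 min, and its libraries overlapped throughout, with a log2 fold change of -0.03 ± 0.05 (log2, adjusted p = 0.73). CDC25C, a phosphatase that activates CDK1, had 18.0, 19.0 and 17.6 CPM at 0 min, 19.9, 20.4 and 20.0 CPM at 10 min, 19.5, 19.5 and 19.7 CPM at 30 min, and 19.7, 19.1 and 21.4 CPM at 360 min. All later libraries lay above the 0 min ones, by small margins, and no comparison passed the test, with 0.14 ± 0.05 (log2, adjusted p = 0.089) at 360 min.

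CDC25B, the phosphatase that starts CDK1 activation at the centrosome (chromosome 20, 3786772 to 3806121, plus strand), was the exception in direction. It had 105, 102 and 98.4 CPM at 0 min, 107, 97.0 and 100.5 CPM at 10 min, 98.4, 96.6 and 97.0 CPM at 30 min, and 86.9, 83.3 and 92.5 CPM at 360 min. Every 360 min library lay below all 9 earlier ones. CDC25B fell by 0.21 (log2, SE 0.04, adjusted p = 0.0044) against 0 min, by 0.15 (log2, SE 0.04, adjusted p = 0.023) against 30 min and by 0.21 (log2, SE 0.04, adjusted p = 0.0036) against 10 min. These comparisons share the 360 min libraries. The call against 0 min was kept under all 17 alternatives tried. That against 10 min was lost under 1 of 17, the libraries over 3% mitochondrial counts alone, where CDC25B was at -0.136 (log2). The call against 30 min was lost under 5 of 17. It was lost without replicate 1 at 30 min (adjusted p = 0.059), without replicate 1 or replicate 2 at 360 min (adjusted p = 0.072 each), with a GC trend removed (adjusted p = 0.073) and in the libraries over 3% mitochondrial counts alone (adjusted p = 0.61).

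Of 7 genes of Polo and Aurora kinases, passenger subunits and the AURKA activator TPX2, 6 rose and TPX2 did not pass the test (median log2 fold change 0.20). BIRC5, the survivin subunit of the chromosomal passenger complex (chromosome 17, 78214186 to 78225636, plus strand), had 97.3, 91.1 and 92.0 CPM at 0 min, 97.6, 98.8 and 98.1 CPM at 10 min, 96.3, 94.9 and 99.9 CPM at 30 min, and 116.5, 113 and 114.5 CPM at 360 min. The 360 min libraries were the highest 3 of the 12, by 0.30 ± 0.03 (log2, adjusted p = 5e-05) against 0 min. AURKB, the kinase of that complex, had 53.8, 54.3 and 56.3 CPM at 360 min, against 43.9, 47.6 and 46.8 CPM at 0 min, with no overlap and a change of 0.25 ± 0.05 (log2, adjusted p = 0.0022). The third passenger subunit, CDCA8 (borealin), rose by 0.20 ± 0.05 (log2, adjusted p = 0.014), a call lost without replicate 2 or 3 at 0 min (adjusted p = 0.058 and 0.06) and without replicate 2 or 3 at 360 min (adjusted p = 0.056 and 0.057).

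PLK4, which starts centriole duplication, had 34.0, 32.6 and 34.1 CPM at 0 min, 32.9, 32.4 and 32.5 CPM at 10 min, 35.6, 38.4 and 33.0 CPM at 30 min, and 40.8, 40.8 and 38.4 CPM at 360 min. The 360 min libraries lay above those of 0 and 10 min, while replicate 2 at 30 min reached the lowest of them, and the change against 0 min was 0.25 ± 0.05 (log2, adjusted p = 0.004). AURKA, the centrosomal Aurora kinase, had 249, 251 and 259 CPM at 360 min, against 218, 238 and 228 CPM at 0 min, and rose by 0.15 ± 0.03 (log2, adjusted p = 0.0091). TPX2, which activates AURKA on spindle microtubules, had 334.5, 335 and 346 CPM at 360 min, against 315, 330.1 and 331 CPM at 0 min. Its groups did not overlap, but the difference was small. PLK1, a kinase of mitotic entry and exit, rose by 0.13 ± 0.04 (log2, adjusted p = 0.034), and this call was lost when any library of the comparison but replicate 2 at 0 min was left out (adjusted p = 0.051 to 0.13).

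Of 9 genes of the spindle checkpoint, cohesion and anaphase, 6 rose and 3 did not pass the test (median log2 fold change 0.24). CDCA3, a trigger of mitotic entry whose product is destroyed through the anaphase-promoting complex (chromosome 12, 6844793 to 6852066, minus strand), had 34.2, 32.4 and 33.6 CPM at 0 min, 31.2, 36.0 and 30.8 CPM at 10 min, 35.0, 32.5 and 33.3 CPM at 30 min, and 45.2, 46.6 and 48.8 CPM at 360 min. It changed most in this set, by 0.49 ± 0.06 (log2, adjusted p = 9e-05) against 0 min, and its groups were well apart. BUB1B, which encodes the checkpoint protein BUBR1 (chromosome 15, 40161023 to 40221136, plus strand), had 81.2, 88.1 and 82.8 CPM at 0 min, 81.7, 82.2 and 79.3 CPM at 10 min, 83.4, 84.6 and 83.4 CPM at 30 min, and 104, 106 and 103.5 CPM at 360 min. The 9 earlier libraries stayed between 79.3 and 88.1 CPM, below all 360 min libraries, and the change was 0.31 ± 0.03 (log2, adjusted p = 4.4e-05). TTK, the MPS1 checkpoint kinase, had 40.0, 39.8 and 39.9 CPM at 360 min, against 32.5, 33.6 and 34.6 CPM at 0 min, and rose by 0.25 ± 0.04 (log2, adjusted p = 0.00095).

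The activator CDC20, through which the checkpoint holds the anaphase-promoting complex, had 128, 124 and 129.5 CPM at 360 min, against 107, 117 and 113 CPM at 0 min, and rose by 0.18 ± 0.03 (log2, adjusted p = 0.0026). The checkpoint kinase gene BUB1 rose by 0.25 ± 0.05 (log2, adjusted p = 0.0029), and SGO2, a shugoshin that protects centromeric cohesion, by 0.24 ± 0.08 (log2, adjusted p = 0.04). The SGO2 call was lost without replicate 1 or 2 at 0 min (adjusted p = 0.15 and 0.074) and without replicate 1 or 2 at 360 min (adjusted p = 0.086 and 0.18). PTTG1, which encodes securin, the inhibitor of separase, had 52.2, 56.9 and 52.2 CPM at 0 min, 54.0, 52.3 and 57.8 CPM at 10 min, 56.0, 56.2 and 52.5 CPM at 30 min, and 53.1, 55.4 and 53.1 CPM at 360 min. Its libraries overlapped at every time, with 0.00 ± 0.05 (log2, adjusted p = 0.99) at 360 min. UBE2C, an E2 enzyme of the anaphase-promoting complex, was at 0.10 ± 0.04 (log2, adjusted p = 0.15) against 0 min and passed the test only against 10 min, at 0.14 ± 0.04 (log2, adjusted p = 0.035). The shugoshin gene SGO1 had the lowest counts of the group and was at 0.10 ± 0.09 (log2, adjusted p = 0.49).

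All 5 centromere and kinetochore genes rose (median log2 fold change 0.35). NDC80, the microtubule-binding subunit of the kinetochore (chromosome 18, 2571511 to 2616635, plus strand), had 39.9, 38.2 and 38.1 CPM at 0 min, 35.9, 40.7 and 37.9 CPM at 10 min, 39.4, 41.3 and 39.3 CPM at 30 min, and 51.3, 51.0 and 50.8 CPM at 360 min. The 360 min values were nearly equal to each other and above all earlier ones, by 0.40 ± 0.04 (log2, adjusted p = 6.6e-05) against 0 min. CENPA, the histone H3 variant of centromeric chromatin (chromosome 2, 26764289 to 26801067, plus strand), had 15.7, 16.1 and 16.2 CPM at 0 min, 15.3, 14.6 and 15.1 CPM at 10 min, 16.3, 16.7 and 16.6 CPM at 30 min, and 19.9, 20.9 and 20.2 CPM at 360 min. No 360 min library came near the earlier ones, and the change was 0.35 ± 0.05 (log2, adjusted p = 0.00034). SLC35F6, which shares 7% of the exon length of CENPA on the same strand, was at -0.13 (log2, adjusted p = 0.14). CENPE, a kinetochore motor, had 49.2, 53.0 and 50.1 CPM at 360 min, against 37.0, 39.8 and 41.0 CPM at 0 min, and rose by 0.37 ± 0.05 (log2, adjusted p = 0.0004). NUF2, the partner of NDC80, rose by 0.24 ± 0.05 (log2, adjusted p = 0.0086). CENPF, a late kinetochore protein, had 198, 211 and 179 CPM at 360 min, against 137, 171 and 172 CPM at 0 min. Replicate 1 at 0 min and replicate 3 at 360 min were the low ones of their groups, and the rise was 0.29 ± 0.08 (log2, adjusted p = 0.029). Its call was lost without replicate 1 at 0 min (adjusted p = 0.10) and without replicate 1 or 2 at 360 min (adjusted p = 0.078 and 0.14).

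All 7 mitotic kinesins rose, by log2 fold changes of 0.17 to 0.30 (median 0.23). KIF11, the motor that pushes spindle poles apart (chromosome 10, 92593286 to 92655395, plus strand), had 112, 118 and 119.9 CPM at 0 min, 113, 119 and 115 CPM at 10 min, 116, 129.9 and 121 CPM at 30 min, and 141, 143 and 142 CPM at 360 min. Replicate 2 at 30 min was the highest of the earlier libraries and still below all 360 min ones, and the change against 0 min was 0.28 ± 0.04 (log2, adjusted p = 0.00044). KIF23, the motor of the central spindle, had 67.1, 68.5 and 69.7 CPM at 360 min, against 57.8, 56.1 and 55.9 CPM at 0 min, with no overlap and a change of 0.27 ± 0.05 (log2, adjusted p = 0.0018). KIF4A, a chromosome-bound motor, rose by 0.23 ± 0.05 (log2, adjusted p = 0.0059). KIF2C, a microtubule depolymerase at centromeres, had 113, 119 and 116 CPM at 360 min, against 101, 103.5 and 105.5 CPM at 0 min, which came to 0.17 ± 0.03 (log2, adjusted p = 0.003). KIF20A, a motor of cytokinesis, had 85.7, 84.0 and 86.0 CPM at 360 min, against 72.6, 78.7 and 75.4 CPM at 0 min, and rose by 0.17 ± 0.03 (log2, adjusted p = 0.004). KIF14, also of cytokinesis, and KIF18A, which dampens chromosome movement, rose by 0.23 ± 0.06 (log2, adjusted p = 0.018) and 0.30 ± 0.09 (log2, adjusted p = 0.034). KIF14 lost its call without replicate 1 or 2 at 0 min (adjusted p = 0.08 and 0.069) or replicate 2 at 360 min (adjusted p = 0.10). KIF18A lost it when any library of the comparison but replicate 1 at 360 min was left out (adjusted p = 0.057 to 0.16).

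Of 8 spindle-associated and cytokinesis genes, 6 rose (median log2 fold change 0.30), and this set held ASPM, with the largest log2 fold change of the 45, and ANLN, with the smallest adjusted p. ANLN, which encodes anillin, the scaffold of the contractile ring (chromosome 7, 36389806 to 36453791, plus strand), had 114.5, 126 and 125 CPM at 0 min, 120.1, 122 and 122 CPM at 10 min, 124, 128 and 122 CPM at 30 min, and 164.5, 170.5 and 173 CPM at 360 min. The earlier libraries lay between 114.5 and 128 CPM and the 360 min ones well above, by 0.48 ± 0.04 (log2, adjusted p = 5.8e-06). ASPM, a spindle pole protein (chromosome 1, 197084128 to 197146694, minus strand), had 58.7, 60.5 and 66.6 CPM at 0 min, 54.5, 60.9 and 53.8 CPM at 10 min, 59.6, 65.1 and 63.3 CPM at 30 min, and 83.5, 93.2 and 89.1 CPM at 360 min. The groups were far apart at 360 min against 0 min, by 0.51 ± 0.06 (log2, adjusted p = 9.8e-05). ECT2, the exchange factor that activates RhoA for furrowing (chromosome 3, 172750682 to 172821474, plus strand), had 88.3, 95.7 and 99.0 CPM at 0 min, 87.7, 95.4 and 87.8 CPM at 10 min, 91.8, 100.2 and 92.7 CPM at 30 min, and 119, 118 and 122 CPM at 360 min. Again all 360 min libraries were highest, by 0.34 ± 0.05 (log2, adjusted p = 0.00036). HMMR, a spindle and hyaluronan-binding protein, had 60.9, 60.5 and 64.9 CPM at 360 min, against 48.2, 48.7 and 52.4 CPM at 0 min, and rose by 0.32 ± 0.05 (log2, adjusted p = 0.00058). DLGAP5, which stabilises kinetochore fibres, rose by 0.28 ± 0.05 (log2, adjusted p = 0.0017), and CKAP2, a microtubule-associated protein, by 0.21 ± 0.05 (log2, adjusted p = 0.01).

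Both genes of mitotic chromosome structure rose (median log2 fold change 0.43). TOP2A, the topoisomerase that untangles sister chromatids (chromosome 17, 40388516 to 40417950, minus strand), had 400.1, 425 and 409 CPM at 0 min, 405, 428 and 431 CPM at 10 min, 404, 435 and 409 CPM at 30 min, and 523, 539 and 545 CPM at 360 min. MKI67, which encodes the Ki-67 protein coating mitotic chromosomes (chromosome 10, 128096659 to 128126385, minus strand), had 271, 343 and 332 CPM at 0 min, 303, 296.5 and 293 CPM at 10 min, 328, 293.5 and 302 CPM at 30 min, and 442, 464 and 419.8 CPM at 360 min. For both genes the 3 libraries at 360 min were the highest of the 12. TOP2A rose by 0.38 ± 0.04 (log2, adjusted p = 3.9e-05) and MKI67 by 0.49 ± 0.07 (log2, adjusted p = 0.00063) against 0 min. MKI67 was low in replicate 1 at 0 min.

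**Figure D3:**
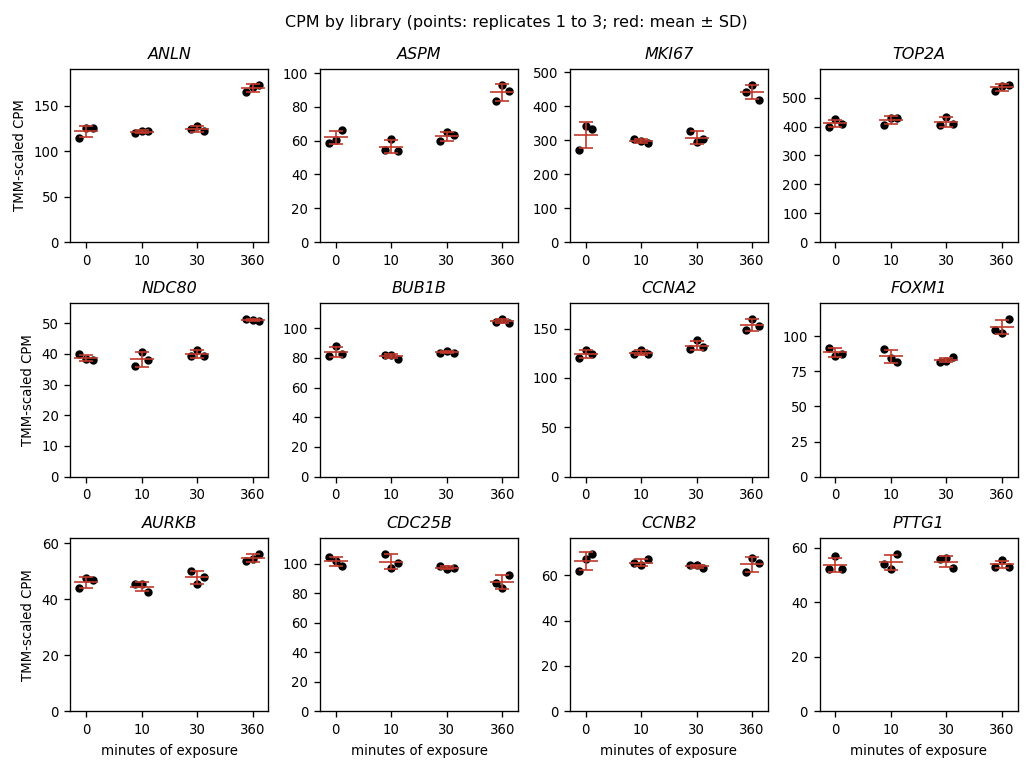
TMM-scaled CPM (y axis, from 0) by minutes of exposure (x axis, categories not to scale) for 12 genes, with 1 point per library and the mean ± SD of 3 replicates in red. ANLN, ASPM, MKI67, TOP2A, NDC80, BUB1B, CCNA2, FOXM1 and AURKB are highest at 360 min, CDC25B is lowest there, and CCNB2 and PTTG1 overlap at all times.

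For NUSAP1, singled out after its values were seen, another gene model on the same strand overlaps most of the exon length, and how reads were divided between them was not tested. NUSAP1, a spindle microtubule-bundling protein (chromosome 15, 41332694 to 41381050, plus strand), shares 1787 bases, 62.2% of its exon length, with AC087721.2. NUSAP1 had 66.7, 64.3 and 67.3 CPM at 0 min, 68.0, 64.9 and 69.7 CPM at 10 min, 63.5, 67.5 and 71.3 CPM at 30 min, and 77.3, 82.8 and 52.1 CPM at 360 min. At 360 min replicates 1 and 2 stood above all earlier libraries and replicate 3 below them, and the change was 0.09 ± 0.12 (log2, adjusted p = 0.67). Without replicate 3 at 360 min NUSAP1 was called higher, at 0.27 (log2, adjusted p = 0.005). In replicate 3 AC087721.2 had 36.35 CPM, against 1.15 and 0.41 CPM in the other 360 min libraries and at most 2.34 CPM in all earlier ones. The sum of both models was 78.4, 83.2 and 88.5 CPM at 360 min, against 66.7, 64.3 and 68.4 CPM at 0 min. That sum rose by 0.33 ± 0.05 (log2, adjusted p = 7e-04), in a fit with the summed pair that was added after the data were seen.

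**Figure D4:**
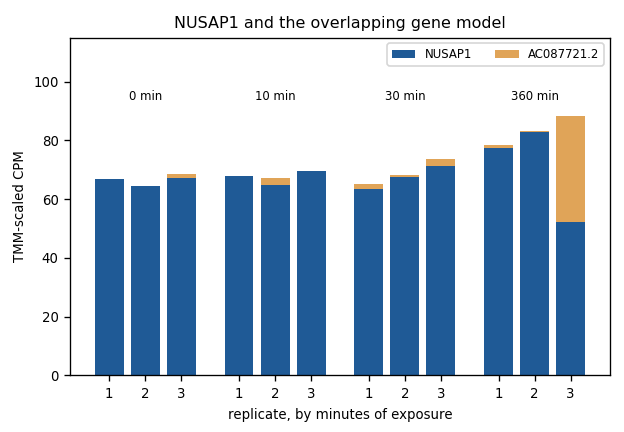
Stacked bars of TMM-scaled CPM per library for NUSAP1 in blue and for the gene model that overlaps it on the same strand in orange, by minutes of exposure and replicate. The orange part is large only in replicate 3 at 360 min, at 36.35 CPM.

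PRC1, which bundles the microtubules of the central spindle (chromosome 15, 90966038 to 90995629, minus strand), was also named after its values were seen. PRC1 had 83.1, 90.0 and 83.1 CPM at 0 min, 84.8, 79.3 and 86.8 CPM at 10 min, 69.0, 75.4 and 72.9 CPM at 30 min, and 92.5, 93.8 and 85.2 CPM at 360 min. The 30 min libraries were the lowest of the 12, with a log2 fold change against 0 min of -0.24 ± 0.05 (log2, adjusted p = 0.054) by edgeR, and at 360 min PRC1 was at 0.08 ± 0.05 (log2, adjusted p = 0.31). The values of PRC1 are uncertain.

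The comparisons of 360 min with 30 and 10 min use the same 360 min libraries and so are not independent of that with 0 min. Against 30 min 37 of the 45 genes rose and CDC25B fell (11.4% of all genes tested rose and 11.3% fell), with a median log2 fold change of 0.24. Against 10 min 37 rose and CDC25B fell (12.9% and 12.7% of all genes), with a median log2 fold change of 0.29. The 36 genes called higher against 0 min were called higher in each of the 3 comparisons, as were 6.34% of all genes. PRC1 was higher only against 30 min and UBE2C only against 10 min. In the libraries over 3% mitochondrial counts alone, 13 genes were called higher against 30 min (2.01% of all genes) and 23 against 10 min (3.29%), with median log2 fold changes of the 45 of 0.23 and 0.28. That fit has 1 library at 360 min, which was assumed to vary like the other groups. CCNB2, CDC25C, TPX2, PTTG1, SGO1 and NUSAP1 were called in none of the 3.

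Other cell cycle genes outside the 45 were read from lists chosen by textbook role, with earlier results of these data known. Of 42 other mitotic genes 30 rose and 12 did not pass at 360 min against 0 min (median log2 fold change 0.25, beside 0.00 for all genes), where 8.89% of all genes tested rose and 9.19% fell. By edgeR 35 of the 42 had an unadjusted p under 0.05, as had 30.5% of all genes. ZWINT, a kinetochore protein, averaged 159.8 ± 1.6 CPM at 360 min and 128 ± 2.9 CPM at 0 min (SD, n = 3 each) and rose by 0.32 ± 0.03 (log2, adjusted p = 1.2e-05). HJURP, the chaperone that loads CENPA, averaged 46.2 ± 1.0 CPM at 360 min and 34.1 ± 1.1 CPM at 0 min and rose by 0.44 ± 0.04 (log2, adjusted p = 3e-05). Of 13 condensin and cohesin subunits 11 rose (84.6%, median log2 fold change 0.22). NCAPG2, a condensin II subunit, averaged 121 ± 3.3 CPM at 360 min and 91.8 ± 1.4 CPM at 0 min and rose by 0.39 ± 0.03 (log2, adjusted p = 2.2e-06), and NCAPG of condensin I averaged 107 ± 1.2 CPM at 360 min and 79.3 ± 2.1 CPM at 0 min and rose by 0.44 ± 0.04 (log2, adjusted p = 2.3e-05).

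Of 17 subunits and partners of the anaphase-promoting complex 4 rose (23.5%, against 8.89% of all genes) and 13 did not pass (median log2 fold change 0.07), with CDC27, a core subunit, at 0.18 ± 0.05 (log2, adjusted p = 0.017) and FBXO5, its inhibitor EMI1, at 0.17 ± 0.05 (log2, adjusted p = 0.022). Of 12 subunits of the MuvB, DREAM and MYBL2 complexes 5 rose (41.7%) and 7 did not pass (median log2 fold change 0.16). MYBL2, the activator that joins MuvB, averaged 304 ± 12 CPM at 360 min and 266 ± 5.1 CPM at 0 min and rose by 0.19 ± 0.04 (log2, adjusted p = 0.0028). RBBP4, a histone-binding subunit of MuvB, averaged 253 ± 2.2 CPM at 360 min and 226 ± 2.5 CPM at 0 min and rose by 0.17 ± 0.03 (log2, adjusted p = 0.004).

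Inhibitors of CDK1 and of G2 progression moved in both directions. Of 11 listed genes 10 were tested, CDKN1C being too low, and 4 rose and 2 fell, where 8.89% of all genes rose and 9.19% fell (median log2 fold change 0.08). CDKN1B, which encodes the CDK inhibitor p27, averaged 55.0 ± 1.9 CPM at 360 min and 40.5 ± 1.8 CPM at 0 min and rose by 0.44 ± 0.04 (log2, adjusted p = 2.8e-05). CCNG2, an atypical cyclin linked to cell cycle arrest, averaged 11.4 ± 0.67 CPM at 360 min and 6.29 ± 0.19 CPM at 0 min and rose by 0.86 ± 0.09 (log2, adjusted p = 3e-05). CCNG1 and the p53-induced CDK inhibitor gene CDKN1A each rose by 0.22 (log2). The genes that fell were GADD45B, by 1.20 (log2, SE 0.15, adjusted p = 0.00017), and CHEK2, by 0.20 (log2, SE 0.06, adjusted p = 0.028). WEE1 and PKMYT1, the kinases that restrain CDK1, were at 0.01 ± 0.05 (log2, adjusted p = 0.94) and 0.08 ± 0.06 (log2, adjusted p = 0.39).

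Of 15 G1 and S phase regulators 3 rose, 4 fell and 8 did not pass, beside the same 8.89% and 9.19% of all genes (median log2 fold change -0.07). CCND1, which encodes cyclin D1 of the G1 phase, averaged 198.5 ± 7.3 CPM at 360 min and 254 ± 7.6 CPM at 0 min and fell by 0.36 (log2, SE 0.04, adjusted p = 3.2e-05). E2F2, a factor of S phase transcription, averaged 32.5 ± 0.65 CPM at 360 min and 42.9 ± 0.094 CPM at 0 min and fell by 0.40 (log2, SE 0.04, adjusted p = 4.6e-05). The others that fell were E2F1 and E2F3, at log2 fold changes of -0.21 and -0.16, and CDK6, CDK4 and CDC6 rose, by 0.43, 0.23 and 0.11 (log2).

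**Figure D5:**
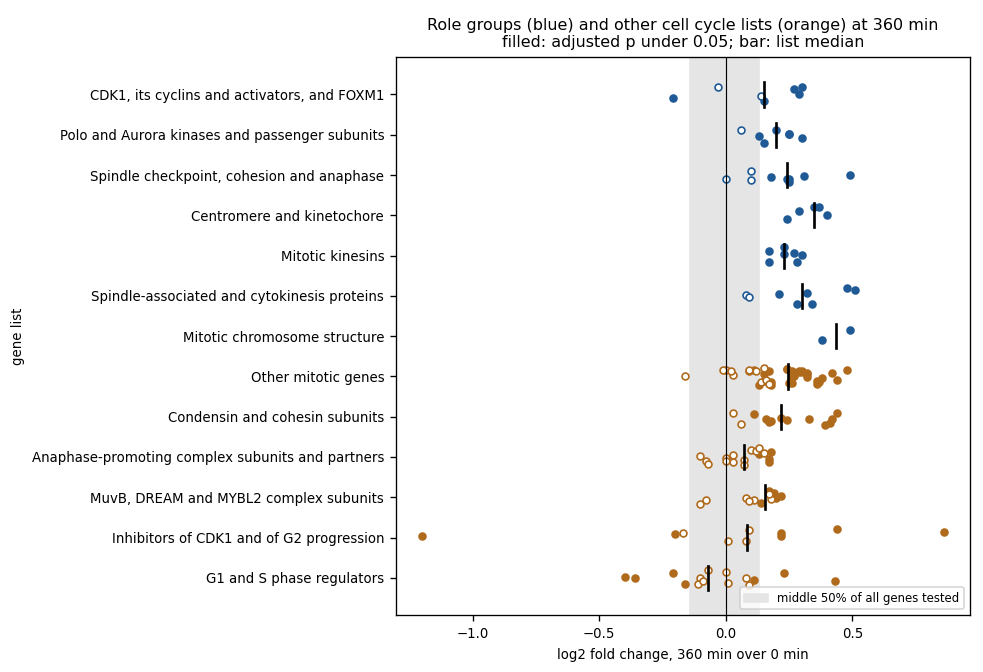
Log2 fold change at 360 min over 0 min (x axis) of every tested gene in the 7 role groups (blue) and the 6 other cell cycle lists (orange), with filled points for an adjusted p under 0.05, a bar at each list's median and a grey band over the middle 50% of all genes tested. The medians of the 7 role groups run from 0.15 to 0.43, those of the other mitotic and the condensin lists are 0.25 and 0.22, and that of the G1 and S phase regulators is -0.07.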

How the data were processed

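The table the authors deposited holds raw counts per gene, whole numbers in 1 column for each of the 12 samples, all of which were used. HISAT2, DESeq2 and GRCh38 are named per the submitters' processing notes; sources used here do not give the counting program, annotation, read length or use of strand. Of 60612 rows 96.34% matched GENCODE 29 (GRCh38), the source of positions and exon lengths.

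The deposited counts entered edgeR 4.0.16 (R 4.3.3) unchanged: filterByExpr by group (17779 genes kept), TMM factors of 0.981 to 1.014, 1 quasi-likelihood model over all 12 libraries with 8 residual degrees of freedom, and Benjamini-Hochberg adjustment over all tested genes. A gene was called at an adjusted p under 0.05. Tests are two-sided and set each group difference against the spread between biological replicates, estimated over all 12 libraries. The common dispersion was 0.00945, a coefficient of variation of 9.72%. SE is the log2 fold change divided by the square root of F. Libraries held 29.8 to 83.5 (in 1e6) counts; 3 counts, the floor for a count of 0, are 0.0359 to 0.101 CPM, counting error only. No libraries were duplicates.

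The 45 genes and all lists were chosen with earlier results of these data known. All 45 are accounted for, with values for up to 4 per role group by smallest p and for every gene called lower; of other lists 2 genes were named by smallest p. Any others were named after their values were seen. Replicate numbers did not pair the libraries (correlations of deviations -0.054 to 0.099). Alternatives were DESeq2 1.42.0, voom in limma 3.58.1, RLE and total-count scaling, no filter or a stricter one, the compared groups alone, a replicate block, a mitochondrial split term, thresholds of 0.01 and 0.1, and leaving out each library. Added after seeing the data were libraries under or over 3% mitochondrial counts alone, removal of a GC trend, and NUSAP1 summed with its overlapping gene. Overlaps of PRC1 with other gene models are not reported here, and its values are uncertain for that reason. The scripts were tested on simulated data.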

Additional observations from a re-analysis of the deposited data

Results flagged for a closer look

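For 37 of the 45 genes the change from 0 min differed between 360 min and 30 min, and was higher at 360 min. This is the test of 360 min against 30 min itself (edgeR, adjusted p under 0.05 over all genes), in which 11.4% of all genes were called higher. The median log2 fold change of the 45 was 0.24 in this comparison. The 37 are the 36 called higher against 0 min and PRC1, whose 30 min libraries were the lowest of the 12. Groups of 3 libraries were not tested for single libraries that stand apart.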

How the results depend on the processing

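At 360 min against 0 min the count of genes called higher lay between 27 and 37 under all 19 alternatives, and CDC25B was the 1 called lower in each. Leaving out each library gave 29 to 34, where 5.5% to 6.92% of all genes were called higher, against 8.89% with all libraries. The 5 libraries under 3% mitochondrial counts alone gave 27, where 5.56% of all genes were called higher. Of the 37 called genes 25 kept their call under all 17 refits and 0 reversed. The other 12 lost it under 1 or more. SGO2 lost it under 10 of the 17, PLK1 under 9, KIF18A under 8, CCNB1 under 7 and KIF14 under 6. CDCA8 and CENPF lost it under 4 each. AURKA, CDC20, KIF20A, KIF2C and KIF4A lost it only in the libraries under 3% mitochondrial counts. 6 calls were lost without replicate 1 at 0 min and 7 without replicate 2 at 360 min. A replicate block gave 35 higher and 1 lower at 360 min against 0 min (8.71% and 8.54% of all genes), although the replicate numbers did not pair the libraries. Against 30 min it gave 37 higher and 1 lower (11.2% and 10.6% of all genes). Against 10 min it also gave 37 higher and 1 lower (12.4% and 12.0% of all genes). It gave 0 calls at 10 and 30 min against 0 min.

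At 30 min against 0 min the count lower was 1 under DESeq2, voom, the stricter filter and a threshold of 0.1, each time PRC1. Under the stricter filter 0.814% of the 14000 genes kept were called lower. With only the libraries over 3% mitochondrial counts, where the lone 360 min library was assumed to vary like the others, 13 genes were higher against 30 min (2.01% of all genes) and 23 against 10 min (3.29%), and the medians of the 45 were 0.23 and 0.28, against 0.24 and 0.29 with all libraries. The lone 360 min library of that fit was replicate 3, in which NUSAP1 had 52.1 CPM and the overlapping AC087721.2 had 36.35 CPM. NUSAP1 alone was then at -0.415 and -0.375 (log2) against 30 and 10 min, and CDC25B at -0.07 and -0.136. The count lower against 30 min was 0 with the GC trend removed and at a threshold of 0.01, and 0 to 1 when each library was left out: it was 0 without replicate 1 at 30 min and without replicate 1 or 2 at 360 min. Without replicate 2 at 360 min the median against 10 min was 0.27, and 0.23 with the GC trend removed.

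Values near 0 changed sign. At 360 min against 0 min PTTG1 was at -0.003 under DESeq2, -0.006 under voom, -0.002 under RLE, -0.011 under total-count scaling, -0.0 without a filter, -0.006 in the 2 groups alone and -0.018 in the libraries under 3% mitochondrial counts. Leaving out each library gave -0.026 to 0.045 for PTTG1 (-0.025 and -0.02 without replicate 1 or 3 at 0 min), -0.082 to 0.009 for CCNB2 (0.008 without replicate 3 at 0 min) and -0.037 to 0.272 for NUSAP1. NUSAP1 ranged from -0.065 to 0.248 against 30 min (-0.007 without replicate 1 at 360 min) and from -0.068 to 0.239 against 10 min (-0.01 without replicate 1), where the mitochondrial split term gave -0.048. NUSAP1 was called higher in all 3 without replicate 3 at 360 min, at 0.272, 0.248 and 0.239. The cause was not tested. Library counts of the 45 genes ran from 360 (SGO1) to 35848 (TOP2A), and their number sets the counting error. Calls of the other lists under the alternatives are not given here.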

Other observations

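Across the 45 genes, the log2 fold change at 360 min against 0 min was larger at greater total exon length (Spearman's rho 0.47, Pearson's r 0.50). It was smaller for genes with a higher GC content of the longest transcript (rho -0.42, r -0.42). Over all 17553 tested genes with a value, rho was 0.03 with length and -0.24 with GC content. The median GC content was 42.6% for the 45 and 49.1% for all tested genes. These relations are descriptions over genes that share the same 12 libraries. With the GC trend removed 33 of the 45 were called higher and 1 lower (9.93% and 9.1% of all genes). The median log2 fold change of the 45 was then 0.21, against 0.25 without the removal.

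NEK2, a centrosomal mitotic kinase outside the 45, was the 1 gene of the 42 other mitotic genes called lower in a comparison with 360 min, by 0.19 (log2, SE 0.05, adjusted p = 0.016) against 30 min and by 0.17 (log2, SE 0.05, adjusted p = 0.029) against 10 min. Against 0 min it was at -0.16 ± 0.05 (log2, adjusted p = 0.055). RBL2, which encodes the DREAM subunit p130, fell by 0.14 (log2, SE 0.04, adjusted p = 0.018) against 10 min and was at -0.10 ± 0.04 (log2, adjusted p = 0.086) against 0 min. Among genes whose exons overlap a member of the group on the opposite strand, BRD8, beside KIF20A, rose by 0.22 (log2, adjusted p = 0.00085) and KCTD18, beside SGO2, was at -0.31 (log2, adjusted p = 0.0053) at 360 min against 0 min.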
